A study of Mus musculus with 9 samples.

Results

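Cytosolic ribosomal protein mRNAs were compared among 3 groups of mouse cells. They are labelled as embryonic stem cells (ESC), haematopoietic stem cells (HSC) and very small embryonic-like cells (VSEL). The family was defined by symbol, as Rpl or Rps with a number and an optional a, l, x or y, plus Rplp0, Rplp1, Rplp2 and Rpsa. Of 18193 genes measured by a probe set of their own, 46 met this rule, 24 of the large ribosomal subunit and 22 of the small one. The platform annotation holds 75 such genes, and 29 of them had only probe sets that the annotation assigns to several genes, so that they could not be named. Each member was read from the brightest of its one-gene probe sets, 100 in all. RefSeq lists 45 members as protein coding and Rps4l as a transcribed pseudogene, which was kept because its symbol met the rule.

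C57BL/6 mice aged 4 weeks gave the bone marrow from which VSEL (Sca-1+ Lin- CD45-) and HSC (Sca-1+ Lin- CD45+) were sorted. ESC-D3 is an established line of strain 129S2/SvPas, grown on gelatin with leukaemia inhibitory factor, so that strain, culture and cell type cannot be told apart in comparisons with ESC. Whether the groups also differ in sex was not tested. No group carried a transgene or received a treatment, per the labels. Each library was PCR-amplified cDNA of 20 sorted cells on 1 Affymetrix array, with 3 arrays per cell type, and the labels do not say whether libraries came from separate mice or cultures. All p-values thus rest on how far these libraries differ, and that spread may be technical.

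VSEL arrays 2 and 3 correlated at 0.989 over all probe sets, and only 1 probe set was over 4-fold apart, against 1565 to 4232 probe sets in each remaining within-group pair. These arrays were averaged and counted as 1 library (VSEL 2+3), which leaves 2 libraries for VSEL, 3 for HSC and 3 for ESC, and these numbers are the n of every mean ± SD below. Ptprc, which encodes CD45, read 13.40 to 13.68 in HSC and 2.94 to 3.59 in the other libraries. Pou5f1, a defining gene of pluripotency, read 12.90 to 13.20 in ESC, 10.21 and 9.80 in VSEL and 3.27 to 3.96 in HSC. Kit, a marker of blood stem and progenitor cells, was not higher in HSC (7.57 to 8.96) than in ESC (9.47 to 10.37). Of 14 such markers, 4 were higher and 2 lower in HSC than in ESC at a limma adjusted p of at most 0.05. Their median difference was 1.11, and 6.99% of all genes were higher and 9.93% lower. Median levels of 14 granulocyte and monocyte markers were 13.52 to 13.79 in HSC, 12.65 and 14.45 in VSEL and 4.68 to 4.86 in ESC. The names HSC and VSEL are thus those of the sorting gates. The mean of the hybridisation controls was 9.91 to 10.35 on HSC and ESC arrays and 10.96 to 11.53 on those of VSEL.

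The cytosolic ribosome is built from a small and a large subunit, each an assembly of ribosomal RNA and many small proteins, almost all present in a single copy. Most ribosomal protein mRNAs begin with a C followed by a run of pyrimidines, the 5′ terminal oligopyrimidine (TOP) motif, through which mTOR and LARP1 control their translation together. A few of the proteins have paralogues, such as Rpl39l for Rpl39 and Rps27l for Rps27, whose mRNAs are known to be restricted to certain tissues or states. Stem cells of bone marrow are known for low rates of protein synthesis, while embryonic stem cells divide fast and make ribosomes at a high rate.

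The bases around annotated start sites are shown first, because the TOP motif is the sequence feature that most of these mRNAs share. RefSeq promoter windows (GRCm38.p6) were matched by symbol for 40 of the 46 members, the first listed window of each. The lines give 10 bases before to 20 bases after the start, 5′ to 3′ on the gene's strand, with the longest pyrimidine run in capitals, for both paralogue pairs that have windows, for some of the members whose differences are described below, and for Rplp2 as a member with level values.
Rps27 (chr3:90213629-90213658, minus strand): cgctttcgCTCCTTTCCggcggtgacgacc
Rps27l (chr9:66946076-66946105, plus strand): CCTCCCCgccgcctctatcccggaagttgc
Rpl39 (chrX:37085203-37085232, minus strand): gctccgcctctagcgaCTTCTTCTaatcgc
Rpl39l (chr16:10170218-10170247, plus strand): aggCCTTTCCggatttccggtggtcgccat
Rps4x (chrX:102189372-102189401, minus strand): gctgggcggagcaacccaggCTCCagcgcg
Rps28 (chr17:33824543-33824572, minus strand): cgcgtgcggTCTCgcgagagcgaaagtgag
Rps6 (chr4:86857348-86857377, minus strand): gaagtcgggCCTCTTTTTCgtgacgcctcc
Rplp2 (chr7:141447641-141447670, plus strand): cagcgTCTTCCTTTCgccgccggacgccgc
The first 10 bases of each line precede the annotated start, so a run in capitals need not be a TOP motif. Those of Rps27l and Rpl39l end before the start, and those of Rpl39 and Rps4x begin after it. Rps6 and Rplp2 carry runs of 10 pyrimidines and Rps27 one of 9, while Rps4x and Rps28 have runs of only 4 in the bases shown. A run of at least 7 pyrimidines lay between 10 bases before and 40 bases after the start in 30 of 40 member windows (75%), against 27.7% of all 27025 windows. Runs of at least 10 were found in 40% of member windows and 7.6% of all. The median longest run was 9 bases in members and 5 in all windows. Over the whole 300 bases, with both strands searched, CTTCCG (a core shared by ETS-family sites) occurred in 72.5% of member windows and 17.2% of all, GGGCGG in 52.5% and 35.9%, TATAAA in 10% and 14.2%, GCCATCTT in 5% and 2.9%, and ACGTGA in 7.5% and 7.1%. These matches describe the letters of the windows and are not sites of any factor.

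The family as a whole gave some of the brightest signals on every array. On the log2 scale of the deposited values, 33 of 46 members averaged above 13 over the 8 libraries, a level that 99 genes reached in all. Members made up 16 of the 20 brightest genes and 32 of the brightest 50. The highest means were those of Rplp2, a stalk protein of the large subunit (14.82), Rps18 (14.80) and Rps7 (14.77), both of the small subunit. The brightest gene of each array read 14.90 to 15.09, and the brightest member 14.79 to 14.96. Signals of different probe sets also depend on the probes, so this order is one of signals and not of mRNA amounts.

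**Figure D1:**
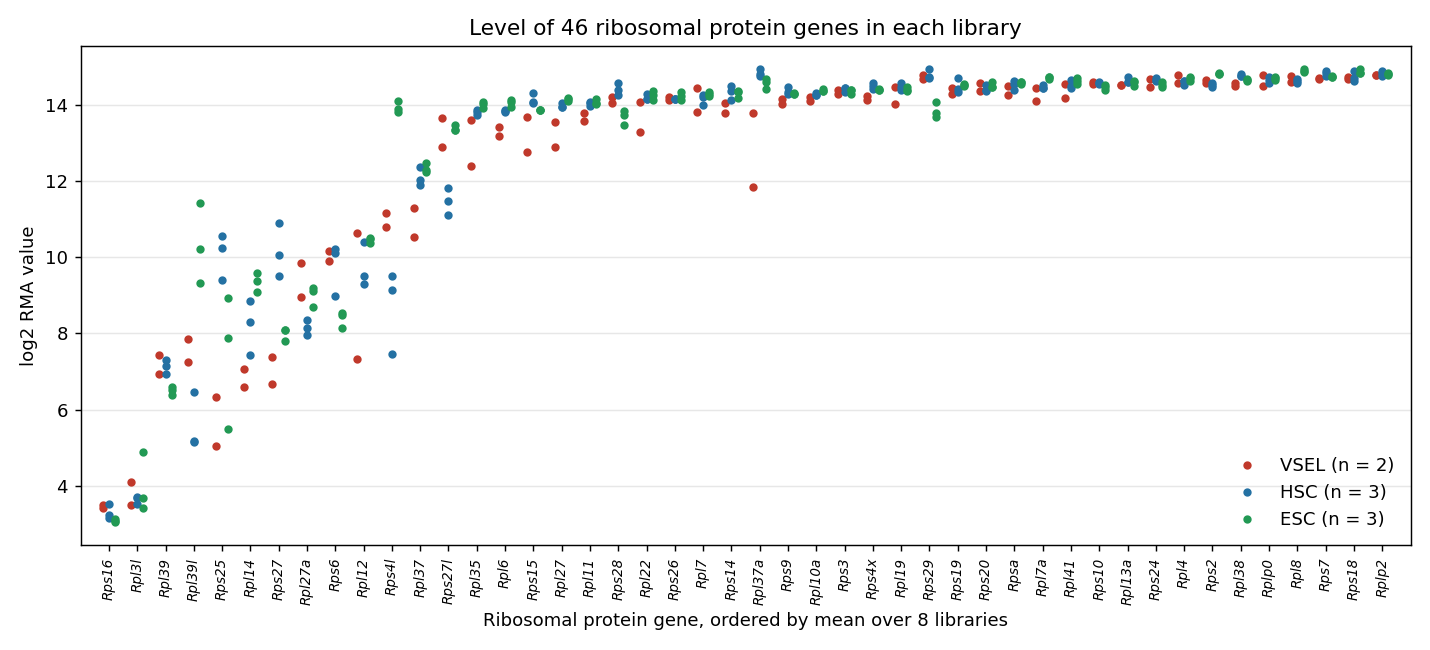
Log2 RMA value of each of the 46 ribosomal protein genes (x axis, ordered by mean) in each of 8 libraries, with VSEL (n = 2) in red, HSC (n = 3) in blue and ESC (n = 3) in green. Members with means of 13 or less, from Rps16 at 3.25 to Rps27l at 12.64, include those that spread widest between cell types, while the 33 members above 13 lie closer together, with VSEL 1 low for Rpl37a, Rpl35, Rps15 and Rpl27 and ESC low for Rps29 and Rps28.

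The remaining 13 members read lower, and the deposited annotation bears on most of them. Rps16 (3.25), Rpl3l (3.81) and Rpl39 (6.91) had the lowest means. Rps16 lay below the lower quartile of all genes (4.49 to 4.80) in every library and Rpl3l in all but ESC 2, so that neither was told from background. For 10 members, Rpl12, Rpl14, Rpl27a, Rpl37, Rpl39, Rps16, Rps2, Rps25, Rps27 and Rps6, a brighter probe set existed that the annotation assigns to several genes. Read from that probe set, their median level went from 8.67 to 14.63 and all 10 lay above 13. A low reading is therefore that of 1 probe set, and the brighter one may hold signal of other genes.

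As deposited, levels of the family differed little between cell types. The median member read 14.15 in VSEL 1 and 14.07 in VSEL 2+3, 14.37, 14.27 and 14.36 in HSC 1 to 3, and 14.29, 14.35 and 14.24 in ESC 1 to 3. Both VSEL medians lay below all others, with group means of 14.11 ± 0.06 in VSEL, 14.34 ± 0.06 in HSC and 14.29 ± 0.06 in ESC. The median difference over members was -0.13 for VSEL minus HSC, -0.19 for VSEL minus ESC and -0.05 for HSC minus ESC, beside 0.22, 0.11 and -0.04 over all genes. The sign of the HSC and ESC median depended on the scaling, with 0.08 when arrays were centred on the median of all genes and 0.37 after cyclic loess. After quantile normalization, centring and cyclic loess the VSEL minus HSC median was -0.05, -0.08 and -0.68. That of VSEL minus ESC was -0.20, -0.03 and -0.29. Over the 25 members left without _s_at, _x_at and _a_at probe sets, the VSEL minus ESC median was -0.64. Within 0.5 log2 units lay 31, 30 and 34 of the 46 members (67.4%, 65.2% and 73.9%), against 44.6%, 46.4% and 51.9% of all genes. Most members are bright, and the share among other genes as bright was not computed. The part of compressed signals near the top of the array's range was not tested. Fewer cells of a type and less RNA per cell cannot be told apart in such pools of cells.

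Rplp2 was the plainest case of a level member. It read 14.78 and 14.79 in VSEL, 14.90, 14.84 and 14.78 in HSC and 14.83, 14.79 and 14.86 in ESC, and the groups overlapped (F test over the 3 cell types, limma adjusted p = 0.93). Rps9, Rpl38 and Rpl10a, with Rps9 of the small subunit and the others of the large one, kept most closely to the family median, with SDs of 0.05, 0.07 and 0.08 over the libraries after subtraction of each library's median. For Rps9 this holds for its brightest probe set alone. Another read 13.14 to 13.63 in HSC and 7.72 to 8.07 in ESC (5.51 apart, limma adjusted p = 1.13e-05), with 13.28 and 13.17 in VSEL, and the dimmest was lower in VSEL than in HSC (-3.97, adjusted p = 0.0468). The median SD between libraries of a group was 0.10 for members and 0.27 for all genes in HSC, 0.07 and 0.24 in ESC, and 0.18 and 0.24 in VSEL. For the 99 genes with means above 13, members included, the median SD was 0.12 in HSC, 0.07 in ESC and 0.24 in VSEL. That is below the value of all genes in HSC and ESC but not in VSEL. The part of brightness in the gap was not tested. The 33 members above 13 gave 0.08, 0.06 and 0.14 in the same order. How far signals near the top of the array's range are compressed was not tested.

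The F test called 13 of 46 members (28.3%) at an adjusted p of at most 0.05, and 25.5% of all genes. In this fit, called members were thus about as frequent as called genes in general, but that depended on the setting. Among genes above the median of all genes, 10 of 44 members were called, against 40.1% of the genes tested. After cyclic loess 32 of 46 were called, against 22.2% of all genes. The F test called 6 members without ESC replicate 1 or 2, and 8 without HSC replicate 1, HSC replicate 2 or ESC replicate 3, and the share of all genes called fell to between 17.4% and 20.3%. By mean, 16 members ran from ESC over HSC down to VSEL and 13 from HSC over ESC down to VSEL, so that VSEL was lowest for 29 of the 46. How many of all genes were lowest in VSEL was not counted. The mean of VSEL lay below HSC for 32 members and below ESC for 38, of which 5 and 6 were called. That held for 6833 and 7961 of all 18193 genes. The members that departed furthest from the family median were Rps4l (SD 2.52 over libraries), Rpl39l (2.32), Rps25 (2.07), Rps27 (1.37) and Rps27l (1.08).

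**Figure D2:**
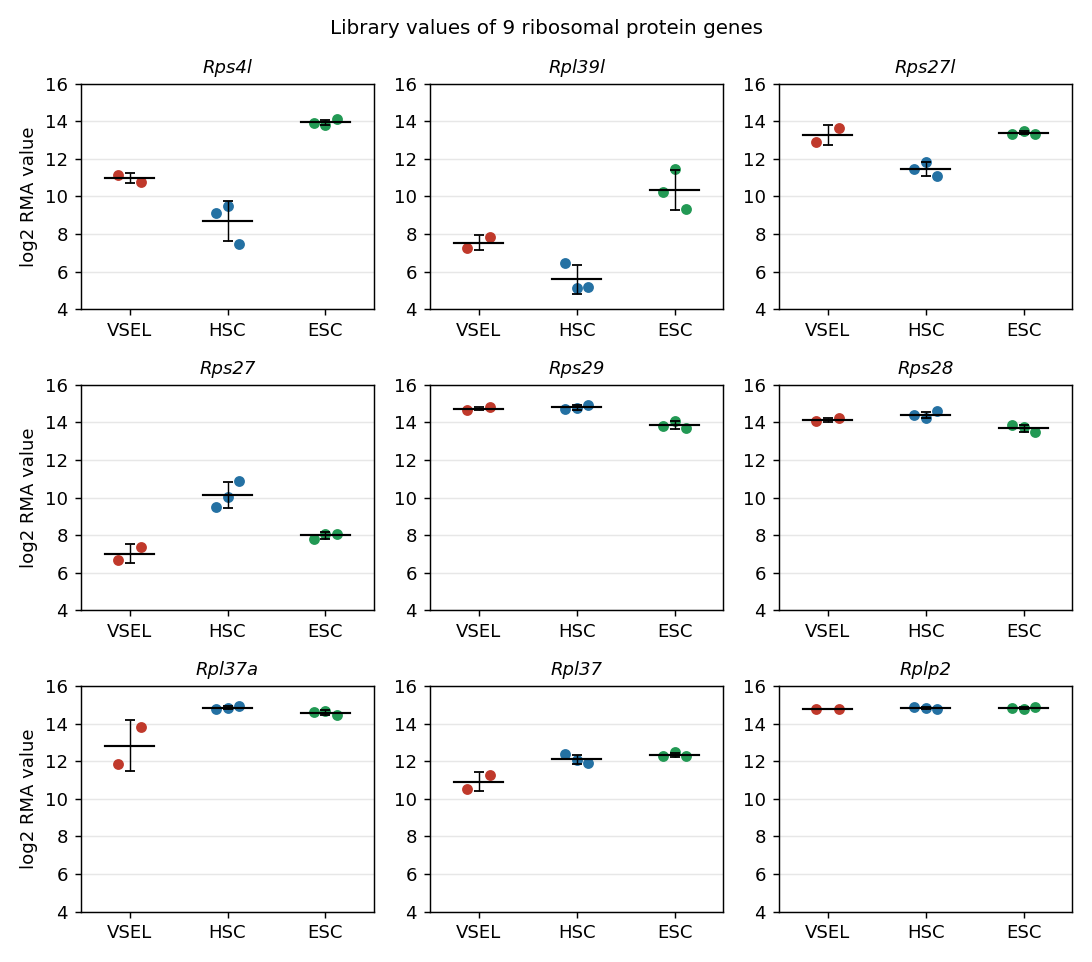
Log2 RMA values of 9 ribosomal protein genes in VSEL (n = 2), HSC (n = 3) and ESC (n = 3). Points are libraries, horizontal lines group means and bars 1 SD. Rps4l and Rpl39l run from HSC over VSEL up to ESC, Rps27l and Rps27 are the other way round from each other between HSC and ESC, and Rplp2 is level.

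On the brightest probe set of each member, Rps4l and Rpl39l had the largest differences of the family between HSC and ESC. Dimmer probe sets gave -6.23 for Rps24 and 5.51 for Rps9 (limma adjusted p over all one-gene probe sets, 0.000961 and 1.13e-05). The brightest probe sets of Rps24 and Rps9 gave 0.14 and 0.06, without a call. Rps4l, a copy of the small-subunit gene Rps4x, read 13.90, 13.82 and 14.10 in ESC, against 9.14, 9.50 and 7.47 in HSC, and 11.16 and 10.80 in VSEL. The 3 groups did not overlap, with ESC highest and HSC lowest. The log2 difference was -5.24 ± 0.52 (SE) for HSC minus ESC, 37.8-fold lower in HSC (limma adjusted p = 0.00095). For VSEL it was 2.27 ± 0.58 against HSC (adjusted p = 0.044) and -2.96 ± 0.58 against ESC (adjusted p = 0.0206). Rps4x itself read 14.14 to 14.59 in all libraries on its brightest probe set and was not called (F test, adjusted p = 0.211). Its dimmer probe set read 5.58 to 6.68. There VSEL was higher than HSC by 0.85 and than ESC by 0.55 (limma adjusted p over all one-gene probe sets, 0.0144 and 0.0484).

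Rpl39l, the paralogue of the large-subunit protein Rpl39, which lies at the tunnel through which new chains leave the ribosome, had the same order of groups. It read 10.23, 11.44 and 9.32 in ESC, 7.25 and 7.85 in VSEL and 6.46, 5.14 and 5.17 in HSC. Again no group overlapped another. HSC minus ESC was -4.74 ± 0.62 (26.7-fold lower, limma adjusted p = 0.00319) and VSEL minus ESC -2.78 ± 0.69 (adjusted p = 0.0421), whereas VSEL against HSC missed the threshold at 1.96 ± 0.69 (adjusted p = 0.1). Its parent Rpl39 had its lowest mean in ESC, with 7.18 ± 0.35 in VSEL, 7.13 ± 0.18 in HSC and 6.51, 6.59 and 6.39 in the ESC libraries, without a call (F test, adjusted p = 0.0629).

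Markers of pluripotency moved with both of these genes. Of 18 such markers, 15 were higher in VSEL than in HSC and 15 lower in VSEL than in ESC, with a median VSEL minus ESC difference of -2.66. Their summed level on the log2 scale ranged from 11.14 to 12.37 in HSC and from 16.29 to 16.33 in ESC, and the VSEL libraries gave 13.70 and 14.09. In HSC 9 or 10 of the 18 read below the lower quartile of all genes, against 0 or 1 in the other libraries. The part of these markers' source cells in the levels of Rps4l and Rpl39l was not tested.

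Rps27l, a paralogue of the small-subunit protein Rps27 that is known as a target of p53, was low in HSC and high in the other 2 cell types. It read 11.47, 11.83 and 11.11 in HSC, 12.90 and 13.66 in VSEL and 13.33, 13.49 and 13.34 in ESC. HSC lay below every other library. HSC minus ESC was -1.92 ± 0.27 (3.78-fold lower, limma adjusted p = 0.00412) and VSEL minus HSC 1.81 ± 0.30 (3.51-fold higher in VSEL, adjusted p = 0.0121), while VSEL and ESC overlapped (-0.11 ± 0.30, adjusted p = 0.824). All 3 probe sets of Rps27l gave HSC minus ESC differences between -1.96 and -1.74.

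Rps27 itself was highest in HSC. Its own probe set read 9.50, 10.06 and 10.90 in HSC, 7.80, 8.08 and 8.09 in ESC and 6.68 and 7.38 in VSEL. All HSC libraries lay above all others. HSC minus ESC was 2.16 ± 0.38 (4.47-fold higher in HSC, limma adjusted p = 0.0109) and VSEL minus HSC -3.12 ± 0.43 (8.71-fold lower in VSEL, adjusted p = 0.00614). A brighter probe set, which the annotation shares between Rps27 and other genes, read 13.88 to 14.25 in HSC and 12.50 to 13.14 in ESC, a difference of 1.24 with an adjusted p of 0.00777 in the same direction. With 13.62 and 13.66 in VSEL, that probe set did not pass the test between VSEL and HSC (-0.46, adjusted p = 0.194). The Rps27l probe set taken here is of a type that can also bind related sequences, and how far the pair cross-hybridise was not tested.

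Rpl3l, a paralogue known from skeletal and heart muscle, read 3.42 to 4.88 in all libraries, at the level of background. Rpl22l1, a paralogue of Rpl22 whose symbol falls outside the rule, was lower in VSEL (10.56 ± 0.17) than in HSC (12.60 ± 0.46) and ESC (13.02 ± 0.33). The differences were -2.04 ± 0.32 and -2.46 ± 0.32, with limma adjusted p-values of 0.00996 and 0.00532. Every VSEL library lay below every other one. Rpl22l1 is in a list of 10 paralogues and genes linked to ribosomal proteins outside the rule, of which 4 were measured. Of these, 1 was lower in VSEL than in HSC, 2 lower in VSEL than in ESC and 0 called between HSC and ESC. Shares of all genes in that order were 9.18%, 10.5% and 9.93% lower and 8.01%, 6.38% and 6.99% higher. Rpl7l1, another gene of this list, was lower in VSEL than in ESC (-1.86, adjusted p = 0.0439). Fau, which encodes a fusion of a ubiquitin-like protein with the small-subunit protein eS30, read 13.95 to 14.67 throughout without a call.

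HSC against ESC asks how the family stands in adult blood cells beside cultured pluripotent cells, and it had the most replicates. Of 46 members 7 were called (15.2%), against 16.9% of all genes. In HSC 4 were higher and 3 lower (8.7% and 6.52%, against 6.99% and 9.93% of all genes). All HSC libraries lay above all ESC libraries for 13 members (28.3%, against 16.5% of all genes) and below them for 12 (26.1%, against 21.5%). The 3 called lower were Rps4l, Rpl39l and Rps27l. The 4 called higher, Rps27, Rps6, Rps29 and Rps28, all belong to the small subunit. Rps28 and Rps29, and below Rpl6, Rpl27 and Rpl27a, fell outside the rule for named genes and were taken up after their values were seen.

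Rps29, a small zinc-binding protein of the small subunit's head, was lower in ESC than in both marrow populations. It read 13.79, 14.09 and 13.68 in ESC, 14.71, 14.75 and 14.94 in HSC and 14.68 and 14.80 in VSEL. ESC did not overlap the others, while HSC and VSEL overlapped. The difference was 0.95 ± 0.16 for HSC minus ESC (1.93-fold, limma adjusted p = 0.0083) and 0.89 ± 0.17 for VSEL minus ESC (1.85-fold, adjusted p = 0.021). Its 3 probe sets gave 0.66 to 0.95 for HSC and 0.74 to 0.89 for VSEL.

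Rps28, a small-subunit protein near the channel where mRNA leaves the ribosome, showed a smaller difference of the same sign. It read 13.85, 13.74 and 13.48 in ESC and 14.39, 14.26 and 14.59 in HSC, 0.72 ± 0.16 apart (limma adjusted p = 0.026), and VSEL lay between them at 14.06 and 14.22. The call was lost without HSC replicate 1 or 3 or ESC replicate 2 or 3, with an adjusted p of at most 0.0807 over all alternatives. Rps6, the small-subunit protein phosphorylated by S6 kinase, read 8.55, 8.49 and 8.14 in ESC, 10.22, 10.10 and 8.99 in HSC and 9.91 and 10.17 in VSEL. That gives 1.38 ± 0.35 for HSC minus ESC (adjusted p = 0.0423) and 1.65 ± 0.39 for VSEL minus ESC (adjusted p = 0.0362). The brighter probe set that Rps6 shares with other genes read 15.02 to 15.10 in all libraries, and there the HSC minus ESC difference was -0.01 (adjusted p = 0.97). Leaving out any 1 library other than HSC replicate 3 also ended the call of Rps6 in HSC against ESC.

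The calls of Rps4l, Rpl39l, Rps27l, Rps27 and Rps29 between HSC and ESC were kept in every alternative run, leaving out each library in turn included. Over those alternatives Rps4l ranged from -5.64 to -4.62, Rpl39l from -5.24 to -4.18, Rps27l from -2.10 to -1.54, Rps27 from 1.24 to 2.49 and Rps29 from 0.81 to 1.39. Markers of leukocytes also separated these groups, with all 16 higher in HSC and summed levels of 16.93 to 17.06 against 9.49 to 9.89 in ESC. All 11 T and NK cell markers were higher in HSC as well. Their part in these differences was not tested.

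**Figure D3:**
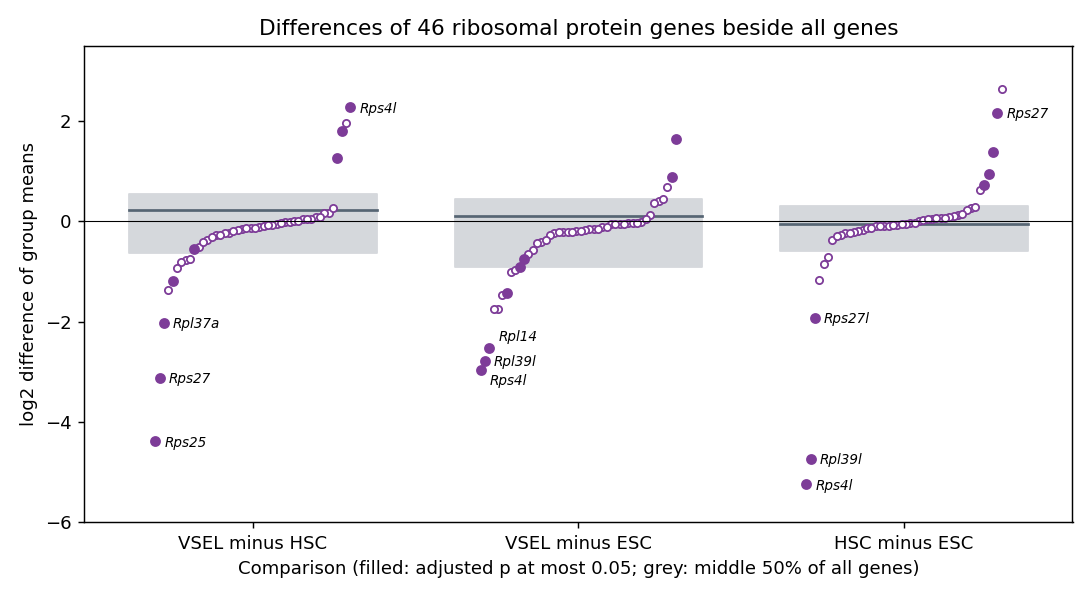
Log2 differences of group means for 46 ribosomal protein genes in 3 comparisons, ordered within each. Filled points passed an adjusted p of 0.05, grey boxes hold the middle of all 18193 genes and the dark line is their median. Most members lie near 0, and Rps4l and Rpl39l stand furthest below it in HSC minus ESC, at -5.24 and -4.74.

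VSEL against HSC compares both marrow populations, which differ in the CD45 gate. Of 46 members 8 were called (17.4%), against 17.2% of all genes. In VSEL 3 were higher and 5 lower (6.52% and 10.9%, against 8.01% and 9.18% of all genes). The higher ones were Rps4l, Rps27l and Rpl27a, and the lower ones Rps25, Rps27, Rpl37a, Rpl37 and Rpl6. All VSEL libraries lay below all HSC libraries for 19 members (41.3%, against 17.3% of all genes) and above them for 5 (10.9%, against 37.8%). With array-wide scaling by cyclic loess, 28 members were called lower and 4 higher, against 14% of all genes called in either direction, and the median member difference was -0.68. Leaving out 1 library gave 2 calls without HSC replicate 1 or ESC replicate 2, 3 calls without HSC replicate 3, ESC replicate 1 or ESC replicate 3, and 4 without VSEL replicate 1 or HSC replicate 2. The share of all genes called fell with them, to between 10.7% and 15.8%.

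Rps25, a small-subunit protein known for its part in initiation on viral internal entry sites, had the largest difference. It read 5.04 and 6.33 in VSEL, 10.56, 9.40 and 10.25 in HSC and 8.93, 7.88 and 5.49 in ESC. VSEL lay below HSC without overlap (-4.39 ± 1.02, limma adjusted p = 0.0339), and overlapped ESC, whose own libraries had an SD of 1.76. The brighter probe set shared with other genes read 13.87 to 14.29 for all libraries and gave -0.26 (adjusted p = 0.238). The call was also lost without VSEL replicate 1, VSEL 2+3, ESC replicate 2 or any 1 HSC library.

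Rpl37a and Rpl37, zinc-binding proteins of the large subunit, were both lower in VSEL. Rpl37a read 11.86 and 13.80 in VSEL, 14.78, 14.83 and 14.95 in HSC and 14.61, 14.68 and 14.43 in ESC, so that VSEL 1 stood far below VSEL 2+3 and both below all others. VSEL minus HSC was -2.02 ± 0.51 (limma adjusted p = 0.0441), and its 3 probe sets gave -3.24 to -1.81. Rpl37 read 10.55 and 11.29 in VSEL, 12.37, 12.05 and 11.90 in HSC and 12.30, 12.48 and 12.25 in ESC. VSEL minus HSC was -1.18 ± 0.26 (adjusted p = 0.0298) and VSEL minus ESC -1.42 ± 0.26 (adjusted p = 0.0172). The brighter shared probe set of Rpl37 gave -0.05 and -0.13, with adjusted p-values of 0.808 and 0.488. Leaving out any 1 HSC or ESC library ended the Rpl37a call against HSC, and leaving out any 1 library other than VSEL 2+3 ended that of Rpl37.

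Rpl6 and Rpl27a, both of the large subunit, made up the rest of the calls. Rpl6 read 13.19 and 13.41 in VSEL against 13.83, 13.83 and 13.88 in HSC, a difference of -0.55 ± 0.14 (limma adjusted p = 0.0433). Rpl27a read 9.85 and 8.97 in VSEL against 7.96, 8.36 and 8.14 in HSC, a difference of 1.26 ± 0.31 (adjusted p = 0.0394). On the brighter shared probe set Rpl27a differed by 0.01 (adjusted p = 0.971). Calls of Rpl6, Rpl27a and Rps4l between VSEL and HSC were each lost without VSEL replicate 1, HSC replicate 1 or any 1 ESC replicate. The Rps4l call was also lost without VSEL 2+3, and those of Rpl6 and Rpl27a without HSC replicate 2 or 3. Those of Rps27 and Rps27l were kept without each library in turn.

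The VSEL libraries differed from each other for single members. VSEL 1 exceeded VSEL 2+3 by 3.31 for Rpl12, a large-subunit protein of the stalk base, which read 10.63 and 7.33. On the brighter probe sets shared with other genes these libraries read 14.27 and 14.19 for Rpl12 and 13.99 and 13.87 for Rps25. On the members' own probe sets VSEL 1 minus VSEL 2+3 was -1.94 for Rpl37a, -1.29 for Rps25 and -1.19 for Rpl35. Erythroid markers, of which 6 of 11 were higher in VSEL than in HSC, summed to 16.38 in VSEL 1 and 15.10 in VSEL 2+3 against 12.26 to 13.23 in HSC. Pan-leukocyte markers summed to 14.72 and 16.43 in VSEL against 16.93 to 17.06 in HSC, with 5 of 16 called lower. T and NK cell markers were lower in VSEL for 7 of 11 (median -2.47), and B lineage markers higher for 4 of 10. The 3′ to 5′ difference of the Gapdh control probe sets, which rises as RNA or cDNA gets shorter, was smallest on ESC arrays (0.18 to 0.28), then HSC (0.50 to 0.75), and largest on VSEL arrays (0.72 to 1.19). The same difference of the actin controls was largest on HSC arrays (0.97 to 1.23), at 0.70 to 0.95 on those of VSEL and 0.41 to 0.72 on those of ESC. The part of these in the VSEL differences was not tested.

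VSEL against ESC asks how the family stands in cells proposed to resemble embryonic cells. Of 46 members 8 were called (17.4%), against 16.9% of all genes. In VSEL 2 were higher and 6 lower (4.35% and 13%, against 6.38% and 10.5% of all genes). Rps29 and Rps6 were higher, and Rps4l, Rpl39l, Rpl14, Rpl37, Rpl27 and Rpl6 lower. VSEL lay below ESC in every library for 24 members (52.2%, against 22.6% of all genes) and above for 6 (13%, against 33%). The count of calls was 2 without ESC replicate 1 or 2 and 4 without ESC replicate 3, with 9.98%, 9.39% and 10.6% of all genes called. Granulocyte and monocyte markers, 12 of 14, and B lineage markers, 7 of 10, were higher in VSEL than in ESC, and their part in these differences was not tested.

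Rpl14, a large-subunit protein, read 7.06 and 6.60 in VSEL, 8.84, 7.44 and 8.31 in HSC and 9.39, 9.09 and 9.59 in ESC. Its groups did not overlap. VSEL minus ESC was -2.53 ± 0.42 (5.77-fold lower, limma adjusted p = 0.0123), and this call was kept without each library in turn. The brighter probe set that Rpl14 shares with other genes gave -0.38 (adjusted p = 0.186). Rpl27, of the large subunit, read 12.91 and 13.56 in VSEL and 14.19, 14.17 and 14.10 in ESC, a difference of -0.92 ± 0.21 (adjusted p = 0.0315). Rpl6 differed by -0.75 ± 0.14 between VSEL (13.30 ± 0.15) and ESC (14.06 ± 0.09), with an adjusted p of 0.0169. The Rpl27 call was lost without VSEL replicate 1, HSC replicate 2 or 3 or any 1 ESC replicate, and that of Rpl6 without VSEL replicate 1 or ESC replicate 1 or 2. Among the other calls of this comparison, Rps4l was lost without VSEL 2+3 or any 1 ESC replicate, Rps6 without either VSEL library or any 1 ESC replicate, and Rps29 without VSEL 2+3 or ESC replicate 1 or 3. Rpl39l was lost without either VSEL library, HSC replicate 2 or 3 or ESC replicate 1 or 2, and Rpl37 without ESC replicate 2.

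Large-subunit members had a lower median difference than small-subunit members in each comparison. The medians were -0.18 and -0.09 for VSEL minus HSC, -0.25 and -0.13 for VSEL minus ESC, and -0.11 and 0.07 for HSC minus ESC. The difference between the subunits was not tested. Of the called members of VSEL against ESC, all 5 of the large subunit (Rpl39l, Rpl14, Rpl37, Rpl27 and Rpl6) were lower in VSEL, while 2 of 3 of the small subunit were higher. When each library's member median was subtracted first, 7 members were called in each comparison, against 27.9% of all genes for VSEL against HSC, 21.3% for VSEL against ESC and 17% for HSC against ESC. In HSC against ESC they were the genes called without this step. In VSEL against HSC the call of Rpl6 was lost (adjusted p = 0.163) and in VSEL against ESC those of Rpl27 (adjusted p = 0.0653) and, narrowly, Rpl6, while Rpl39 was called higher in VSEL (0.86, adjusted p = 0.0368). Among the 23 members with several one-gene probe sets, all probe sets had 1 sign for 12, 13 and 13 members in the order of comparisons given, and no member had probe sets called in opposite directions.

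Genes that make and serve ribosomes differed from ESC more than the ribosomal proteins did by median. Biogenesis factors had median levels of 8.51 to 10.18 over the libraries, far below those of the cytosolic ribosomal proteins. How far the latter are compressed near the top of the array's range was not tested. Ribosome biogenesis factors, 90 of them measured, included 34 lower and 0 higher in VSEL than in ESC (median -1.48) and 25 lower and 0 higher in HSC than in ESC (median -1.13). Among all genes 10.5% were lower and 6.38% higher in VSEL than in ESC, and 9.93% and 6.99% in HSC than in ESC. Nolc1, a nucleolar phosphoprotein, was lower in VSEL (-2.93, limma adjusted p = 0.0281), and so was Nip7 (-2.82, adjusted p = 0.0391), a factor of pre-rRNA processing. Utp4 and Pno1, which act on the small subunit's precursor, were lower in HSC (-2.96 and -2.62, adjusted p = 0.0166 and 0.00106). Of the 18 subunits and factors of RNA polymerase I, which transcribes rRNA, 8 were lower in VSEL and 6 in HSC than in ESC and none higher, among them Rrn3, the factor that brings the polymerase to the promoter (-2.83 and -2.01, adjusted p = 0.00777 and 0.012). The largest others were Polr1e in VSEL (-2.57) and Polr2h in HSC (-2.38).

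VSEL and HSC differed less from each other in these lists. Of the biogenesis factors 13 were lower and 1 higher in VSEL, led by the helicase gene Ddx10 (-2.75, limma adjusted p = 0.0449) and Rpf1 (-2.30, adjusted p = 0.00503). Among all genes 9.18% were lower and 8.01% higher in VSEL than in HSC. Of the polymerase I list 3 were lower, Znrd1 (-2.22) and Taf1b (-2.12) among them. The median biogenesis difference between VSEL and HSC was -0.42 as deposited but 0.03 after quantile normalization and 0.18 after cyclic loess. For both comparisons with ESC the medians of these 2 lists stayed below 0 under each scaling. After cyclic loess they were smaller, at -0.69 (18 biogenesis factors lower, 1 higher) and -1.01 (4 polymerase I genes lower) for VSEL minus ESC, and at -0.89 (15 lower) and -0.84 (2 lower) for HSC minus ESC.

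**Figure D4:**
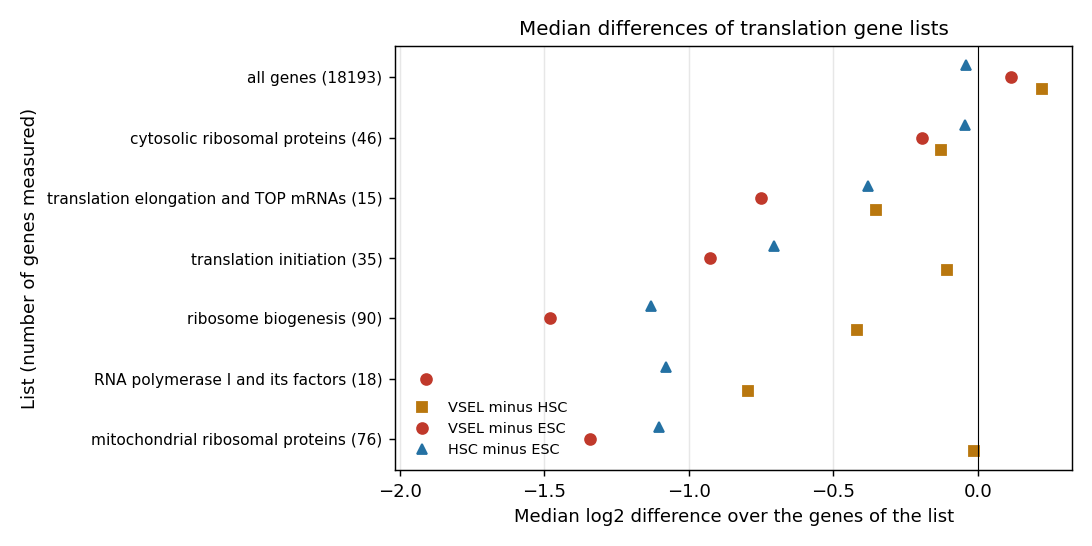
Median log2 difference (x axis) over the genes of each list (y axis, number measured in brackets) for VSEL minus HSC (squares), VSEL minus ESC (circles) and HSC minus ESC (triangles). The cytosolic ribosomal proteins lie between -0.19 and -0.05, while ribosome biogenesis, RNA polymerase I and mitochondrial ribosomal proteins lie at -1.08 or lower in both comparisons with ESC.

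Mitochondrial ribosomal proteins, which build the separate ribosome of that organelle, had lower medians than the cytosolic ones in both comparisons with ESC. Their median level was 9.34 to 10.72 over the libraries, against 14.07 to 14.37 for the cytosolic ones. How far the cytosolic signals are compressed near the top of the range was not tested. Of 76 measured, 25 were lower and 2 higher in VSEL than in ESC (median -1.34), and 22 lower and 0 higher in HSC than in ESC (median -1.10). Shares of all genes were 10.5% lower and 6.38% higher in VSEL, and 9.93% lower and 6.99% higher in HSC. Mrps10 and Mrps18b led in VSEL (-3.01 and -2.92, limma adjusted p = 0.0121 and 0.00378), and Mrps31 and Mrpl42 in HSC (-4.24 and -3.58, adjusted p = 0.000682 and 0.00876). Between VSEL and HSC 8 were lower and 4 higher, with Mrpl9 (-3.01) and Mrpl24 (-2.63) the largest, and the median of -0.01 turned positive under each of the 3 other scalings. For all genes the shares were 9.18% lower and 8.01% higher in VSEL than in HSC. Cyclic loess left 12 lower and 3 higher in VSEL than in ESC (median -0.53), and 18 lower in HSC than in ESC (median -0.85). The difference between these lists and the cytosolic ribosomal proteins was not tested.

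Translation initiation factors had medians of -0.93 for VSEL minus ESC and -0.71 for HSC minus ESC. Of 35 measured, 10 were lower and 1 higher in VSEL than in ESC, 12 lower and 0 higher in HSC than in ESC, and 5 lower and 1 higher in VSEL than in HSC. Shares of all genes in the same order were 10.5%, 9.93% and 9.18% lower and 6.38%, 6.99% and 8.01% higher. After cyclic loess 5 were lower and 1 higher in VSEL than in ESC (median -0.39), and 6 lower and 2 higher in HSC than in ESC (median -0.36). Eif4a2, a helicase of the cap-binding complex, read 10.06 and 10.11 in VSEL, 12.45, 12.80 and 12.84 in HSC and 12.57, 12.68 and 12.36 in ESC, so that both VSEL libraries lay below all others. VSEL minus HSC was -2.61 and VSEL minus ESC -2.45 (limma adjusted p = 0.00042 and 0.00105). Eif3e was lower in VSEL than in HSC (-1.48, adjusted p = 0.00154), and Eif4e, the cap-binding protein, lower in VSEL than in ESC (-2.64, adjusted p = 0.00302). Eif4ebp1, the inhibitor of Eif4e, was lower in HSC than in ESC (-4.05, adjusted p = 0.00134), as was Eif2s3y, a gene of the Y chromosome (-2.91, adjusted p = 0.0173). Eif2s3y read 3.54 to 3.74 in HSC and 5.82 to 7.85 in ESC. In every HSC library it lay below the lower quartile of all genes, so that it was not told from background there. It is among the 12 factors counted as lower in HSC than in ESC, and the part of the cells' sex in its difference was not tested.

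Of 15 elongation factors and other genes with TOP mRNAs or TOP-binding products, 6 were lower in VSEL than in ESC, 2 lower in HSC than in ESC and 3 lower in VSEL than in HSC, and none was higher. The shares of all genes called lower were 10.5%, 9.93% and 9.18% in that order. Larp1, which binds TOP mRNAs, read 8.67 and 8.08 in VSEL, 9.75, 10.07 and 10.60 in HSC and 10.97, 10.47 and 10.56 in ESC. VSEL lay below all others, with differences of -1.77 against HSC (limma adjusted p = 0.0166) and -2.29 against ESC (adjusted p = 0.00714). Naca was lower in VSEL than in HSC (-0.999, adjusted p = 0.031), Larp4 lower in VSEL than in ESC (-2.45, adjusted p = 0.0334), and Nap1l1 and Npm1 lower in HSC than in ESC (-1.57 and -1.08, adjusted p = 0.0125 and 0.0043). Eef1a1, the main elongation factor and itself a TOP mRNA, read 14.56 to 14.78 in all libraries. The median HSC minus ESC difference of this list, -0.38 as deposited, was 0.02 after cyclic loess, which also left 3 lower and 1 higher in VSEL than in ESC.

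Among 17 regulators of ribosomal protein genes and of ribosome synthesis, Mycn had the largest difference from ESC in HSC. Mycn read 10.47, 10.22 and 9.85 in ESC, against 5.34, 3.67 and 4.04 in HSC, with 7.57 and 7.73 in VSEL, the order of groups also seen for Rps4l and Rpl39l. The differences were -5.83 for HSC minus ESC, -2.53 for VSEL minus ESC and 3.30 for VSEL minus HSC (limma adjusted p = 0.000295, 0.0205 and 0.00855). Myc, by contrast, was higher in HSC than in ESC by 2.22 (adjusted p = 0.0169). Tsc1, an inhibitor of mTOR signalling, was lower in VSEL than in HSC (-2.24, adjusted p = 0.0115), and Gabpb1, a partner of an ETS-family factor, lower in VSEL than in ESC (-2.43, adjusted p = 0.0321). In all, 1 regulator was higher and 3 lower in VSEL than in HSC, 2 higher and 3 lower in VSEL than in ESC, and 1 higher and 2 lower in HSC than in ESC. Among all genes, in that order, 8.01%, 6.38% and 6.99% were higher and 9.18%, 10.5% and 9.93% lower. After cyclic loess 2 were higher and 0 lower in VSEL than in ESC, 3 higher and 2 lower in HSC than in ESC, and 1 higher and 1 lower in VSEL than in HSC.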

How the data were processed

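Expression was measured on 9 Affymetrix arrays. The deposited values are log2 expression per probe set, which the authors made with Partek 6.5 and RMA, per the submitters' processing notes, with settings not given in the sources used here. RMA corrects background, normalizes by quantiles and summarises probes. No further normalization was applied. Precision is limited by how many arrays there are.

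Of 45101 probe sets, 64 controls, 9160 not listed in the platform annotation and 932 with several genes were left out. Symbols of 34741 of the other 34945 were updated through RefSeq (GRCm38.p6) and 204 kept. Each of 18193 genes was read from its brightest probe set. The test was limma's (version 3.58.1 under R 4.3.3), with lmFit and eBayes, two-sided (1 fit over 8 libraries, 5 residual and 1.37 prior degrees of freedom), with Benjamini-Hochberg adjustment over all genes and calls at 0.05. The fit assumes equal spread in all groups, while VSEL array 1 correlated at 0.831 to 0.838 with the other VSEL arrays, and pairs within HSC and within ESC at 0.927 to 0.957. The fit was tested on simulated data. Text names the 5 largest called differences per comparison, the 3 highest and 3 lowest members, the 5 most variable around the member median, members ending in l, Rpl22l1, and the 2 largest called genes per translation list. Members, lists and this rule were chosen with earlier results of these data known. The labels give no batch. No genome was used, and sequences come from RefSeq promoter windows.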

Additional observations from a re-analysis of the deposited data

How the results depend on the processing

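The counts of called members depended on the fit in both comparisons with VSEL. For VSEL against HSC (8 as reported) they were 2 with the 2 groups fitted alone, 2 with array weights and 5 with arrays centred on the median of all genes, where 8.72%, 6.87% and 13.7% of all genes were called. For VSEL against ESC (8 as reported) they were 5 with the groups alone, 4 with array weights and 5 among genes above the median of all genes, beside 13.4%, 7.92% and 26.7% of the genes tested. Fitting groups alone gives no F test. Cyclic loess gave 32 calls for VSEL against HSC, 17 for HSC against ESC (14 higher and 3 lower in HSC) and 32 by F test, against 14%, 16.1% and 22.2% of all genes. Leaving out each library in turn gave 2 to 10 calls for VSEL against HSC, 2 to 8 for VSEL against ESC, 5 to 8 for HSC against ESC and 6 to 13 by F test, with the same ranges for the 3 comparisons relative to the member median.

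Median member differences were -0.0544 for VSEL minus HSC and -0.13 for HSC minus ESC after quantile normalization, and -0.68, -0.29 and 0.37 for VSEL minus HSC, VSEL minus ESC and HSC minus ESC after cyclic loess. With centring they were -0.0269 for VSEL minus ESC and 0.0767 for HSC minus ESC, and -0.64 for VSEL minus ESC over the 25 members left without _s_at, _x_at and _a_at probe sets. The cause of these moves was not tested. Scaling moved the median of all genes by -0.14 for VSEL minus HSC (cyclic loess) and by 0.17 and 0.12 for the comparisons of VSEL and HSC with ESC (centring). Rps6 in HSC minus ESC went to -0.0103 on its probe set of several genes.

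Replicate numbers of the titles gave no sign of pairing. Deviations of same-numbered samples correlated at -0.09 to 0.16, and those of differently numbered ones at -0.15 to 0.12. Deviations within a group depend on each other, so these correlations cannot exclude a shared batch. With 9 arrays and the replicate block 6, 7 and 6 members were called, against 11, 11 and 7 with 9 arrays and no block. Of all genes 18.9%, 19.3% and 16.7% were called with the block and 26.1%, 25.9% and 18.6% without. With 2 or 3 libraries a group, small differences of bright members could not be resolved, and members near background have only a bound.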
